A study of Mus musculus with 8 samples.

Results

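Insulin-like growth factor 1 (IGF1), its 2 receptors and the 7 IGF binding proteins were followed in wire-injured carotid arteries of mice with and without miR-126. The genes are Igf1, Igf1r, Igf2r and Igfbp1 to Igfbp7. They were chosen by name, and every noncontrol probe that the scanner files name for them was taken: 15 probes for 10 genes, among 55681 probes on the array. Of these probes 14 were bright enough to be tested. They cover 9 of the 10 genes, all but Igfbp1, among 23777 gene names with a tested probe. Loss of miR-126 was tested in 4 miR-126-/- ApoE-/- mice against 4 miR-126+/+ ApoE-/- mice, with 1 array per mouse. Both genotypes are labelled as lacking apolipoprotein E, a loss that leads to high plasma cholesterol. All mice were females of mixed genetic background labelled as 6 weeks old and kept on a western-type diet, and the artery was taken 14 days after wire injury. The labels name no promoter or Cre for either allele, and do not say whether the age is that at injury or at sampling.

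IGF1 is a peptide hormone and a local growth factor made by many cell types, among them macrophages and cells of the vessel wall, and it drives growth, survival and migration of smooth muscle cells through the tyrosine kinase receptor IGF1R. The type 2 receptor IGF2R, also the cation-independent mannose 6-phosphate receptor, has no kinase and takes IGF2 up for degradation in lysosomes. IGF binding proteins 1 to 6 hold IGFs with high affinity and can withhold them from the receptor or carry them to it, and proteases such as PAPP-A release the IGFs again. IGFBP7 binds IGFs weakly and is deposited in vessel basement membranes. IGFBP2 was reported as a target of miR-126 in human breast cancer cells, and the receptor substrate IRS1 as a target in other human tumour cells.

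The 3p strand of the microRNA that miR-126-/- mice lack and the brighter of 2 array probes of Igfbp2, the gene with the largest difference among the members, are shown here, 5′ to 3′. This mature strand (RefSeq, GRCm38.p6, chr2:26591402-26591423, plus strand) carries its seed, bases 2 to 8, in capitals. No seed of another strand was searched. The Igfbp2 probe, from the scanner files (mm9, chr1:72898677-72898736, plus strand), has an open reading frame of 19 codons from its first base and ends in a stop codon, in capitals.
miR-126a-3p: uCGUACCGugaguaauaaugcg
Igfbp2 probe: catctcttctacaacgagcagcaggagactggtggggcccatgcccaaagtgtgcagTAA
The complement of the seed, CGGTACG, was searched in the probe sequences on both strands. It stood in 0 of the 15 member probes and in 0.0287% of all 55681 noncontrol probes, which says only that these letters are not in these windows.

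Values are log2 signals relative to the array's 75th percentile, so that 0 is that percentile and a step of 1 is a doubling. Each probe has its own efficiency, so levels of different genes were not set against each other. Between 55.9% and 61.5% of probes were well above background, 75th percentiles lay between 619.7 and 864.6 intensity units, and any 2 arrays correlated at 0.959 or more. A single slide in a single scan held every sample, with miR-126-/- in its row 2 and miR-126+/+ in its row 1. The row and the genotype therefore cannot be told apart. Egfl7, whose intron holds miR-126, had a mean of 6.26 in miR-126-/- arteries and 5.78 in miR-126+/+ arteries (limma adjusted p = 0.272). All 8 arteries gave Apoe signal well above background, with means of 2.38 in miR-126-/- arteries and 1.76 in miR-126+/+ arteries (limma adjusted p = 0.515). Neither probe is known to lie in a disrupted part, so they check nothing about the labels. All 10 smooth muscle markers and all 10 endothelial markers were well above background on all 8 arrays. A dim area on miR-126-/- 4 held 0 of the 29 member spots.

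Marker RNA of other tissues was present in the samples in unequal amounts. All 12 adipocyte markers were tested, 11 were well above background on every array, and 12 of 12 were higher in miR-126-/- arteries (median difference 1.32, adjusted p from 0.168 to 0.849). Their summed signal ran from 415 to 772 times the 75th percentile in miR-126-/- arteries and from 211 to 448 times in miR-126+/+ arteries. The mean of these markers, centred over the arrays, was 0.09 to 1.02 in miR-126-/- and -1.19 to 0.28 in miR-126+/+ arteries. It thus went largely with genotype, so differences fitted with it as a covariate are poorly determined. They do not show what is left without fat. The summed signal of the 9 tested skeletal muscle markers ran from 5.62 to 104 in miR-126-/- arteries and from 3.24 to 107 in miR-126+/+ arteries, highest on miR-126-/- 1 and miR-126+/+ 2. Whole arteries were measured, so fewer cells of a type and less RNA per cell cannot be told apart.

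No IGF gene passed the test between the genotypes. Of the 14 tested probes 0 passed at an adjusted p of 0.05 in limma, where 13 of 32481 probes did (0.04%; 0.0185% higher and 0.0216% lower). The adjusted p of the members ran from 0.408 to 0.985. At an unadjusted p under 0.05 there was 1 member probe, that of Igfbp7, against 9.89% of all probes tested. The fitted difference was above 0 for 5 member probes and below 0 for 9, where it was above 0 for 48.6% and below 0 for 51.4% of all probes tested. The median was -0.09 over the member probes and -0.0064 over all. The gene with the largest difference was Igfbp2, and the gene with the smallest p was Igfbp7.

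**Figure D1:**
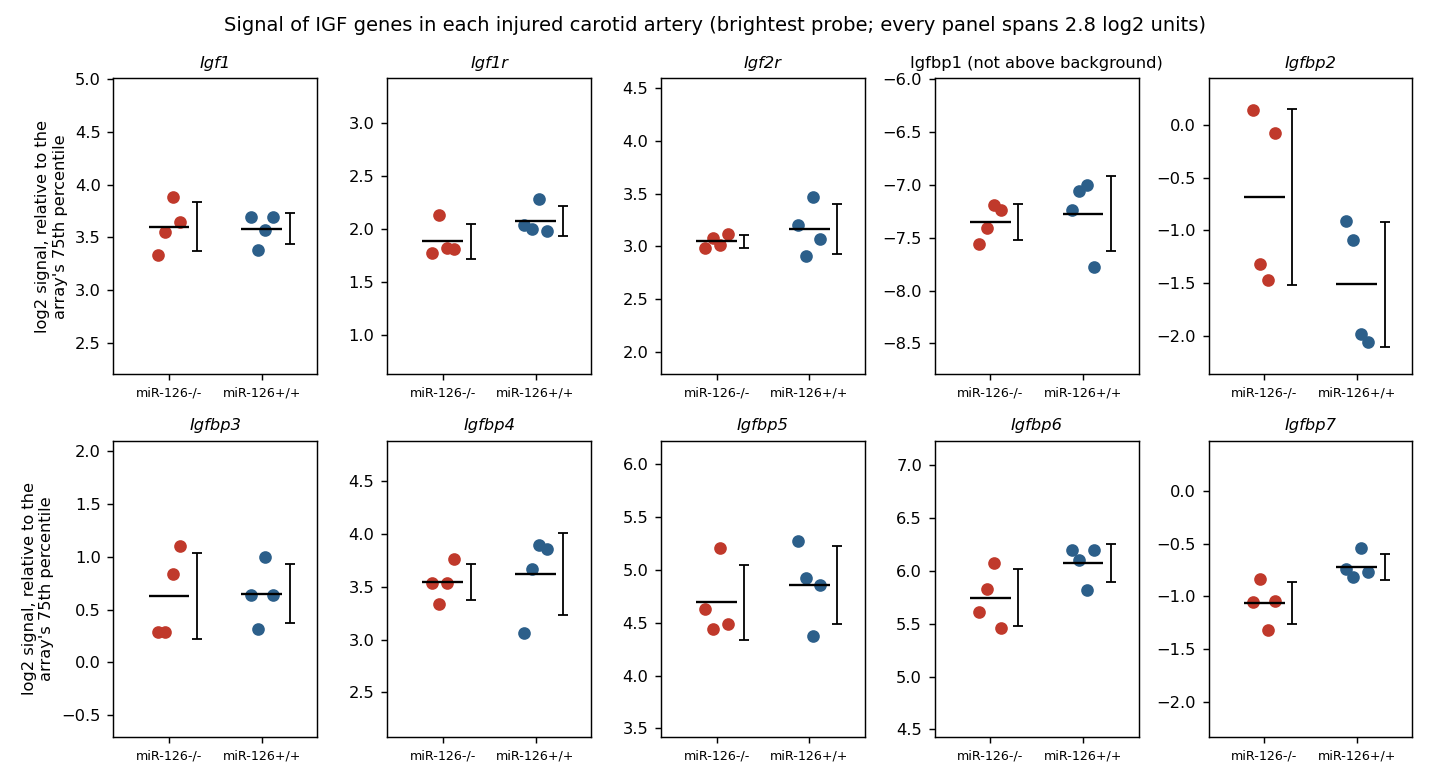
Scaled log2 signal (vertical axis, where 0 is the array's 75th percentile) of each IGF gene's brightest probe in each artery, miR-126-/- in red on the left and miR-126+/+ in blue on the right. Horizontal bars are means and whiskers are 1 SD (n = 4 each); the genotypes overlap in every panel except that of Igfbp7, where the nearest values are -0.84 and -0.82.

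Igf1, the ligand, differed little between the genotypes. Its brightest probe (chr10:87393581-87393640) read 3.33, 3.55, 3.88 and 3.65 in miR-126-/- arteries 1 to 4, against 3.69, 3.38, 3.57 and 3.69 in miR-126+/+ arteries 1 to 4. The highest and the lowest of the 8 values both came from miR-126-/- arteries, and the genotypes overlapped fully. The means were 3.60 ± 0.23 against 3.58 ± 0.14 (SD, n = 4 each), and the difference was 0.02 ± 0.14 (SE; limma adjusted p = 0.972). The 95% interval of the difference, from -0.29 to 0.34, corresponds to a ratio between 0.816 and 1.26.

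The other Igf1 probes lay on both sides of zero. A probe that starts 20 bases upstream and shares 40 bases with the brightest one gave 0.13 ± 0.14. Its offset from the brightest probe varied among the 8 arrays with an SD of 0.08, so overlapping probes read the same pattern. Probes 2343 and 6000 bases downstream gave -0.22 ± 0.14 and -0.21 ± 0.18, and a probe 15125 bases upstream, designed on another transcript variant whose accession the RefSeq table used here does not hold, gave 0.16 ± 0.17 (SE; limma adjusted p from 0.683 to 0.819 for these 4). The 2 spots of this last probe differed with an SD of 0.118 to 0.23 on miR-126-/- arrays and 0.342 to 0.626 on miR-126+/+ arrays. On most arrays this was more than the difference it showed.

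Whether the parts of the Igf1 transcript moved apart was looked at within arrays, after these values were seen. The probe 6000 bases downstream stood -0.27 ± 0.16 from the brightest probe in miR-126-/- arteries and -0.03 ± 0.17 in miR-126+/+ arteries (SD, n = 4 each). By artery, the offsets were -0.27, -0.05, -0.31 and -0.45 with miR-126 missing and 0.18, -0.21, -0.14 and 0.03 with it present, and the groups overlapped. The difference of -0.24 had an exact two-sided permutation p of 0.114 (adjusted 0.179 over 5 such comparisons, of Igf1 and Igfbp2 probes). The probe 2343 bases downstream also gave -0.24 (exact permutation p = 0.114, adjusted 0.179). None of these offsets was shown to differ. The smallest p that 70 arrangements of the arrays can give is 0.0286 before adjustment. An offset alone could therefore not pass after adjustment over 5 comparisons.

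The 2 receptor genes were slightly lower on average in miR-126-/- arteries without passing. Igf1r, the signalling receptor of IGF1, read 1.77, 2.13, 1.82 and 1.81 in miR-126-/- arteries and 2.04, 2.0, 2.28 and 1.98 in miR-126+/+ arteries. Of the miR-126-/- values 3 lay below every miR-126+/+ value, and miR-126-/- 2 stood apart from the other 3. The difference was -0.20 ± 0.12 (SE; 95% interval -0.47 to 0.07; limma adjusted p = 0.655).

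Igf2r, which clears IGF2, had the best measured probe, with 10 spots on each array. The spots of an array differed with an SD of 0.042 to 0.0792. It read 2.98, 3.08, 3.01 and 3.12 in miR-126-/- arteries and 3.20, 2.91, 3.47 and 3.07 in miR-126+/+ arteries. The miR-126-/- values all lay within the span of the miR-126+/+ values. The SD between mice was 0.06 in miR-126-/- arteries and 0.24 in miR-126+/+ arteries. The difference was -0.12 ± 0.13 (SE; 95% interval -0.41 to 0.18; limma adjusted p = 0.814), and -0.014 without miR-126+/+ 3. The file's coordinates for this probe span 11 bases, fewer than its length of 60, and are not used.

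**Figure D2:**
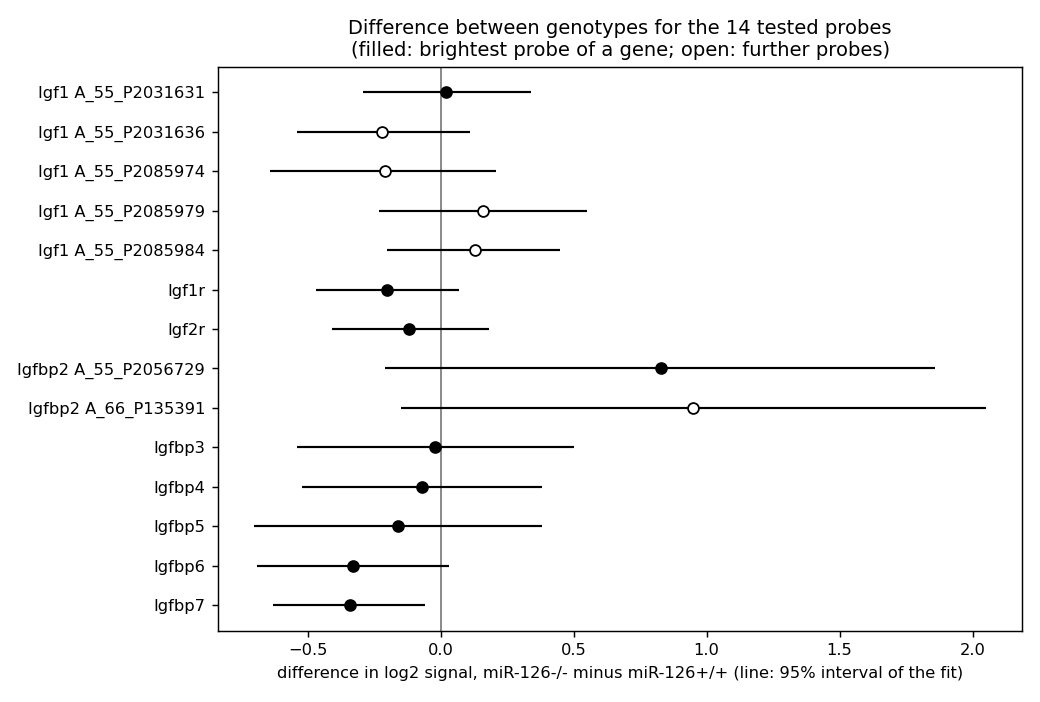
Difference in log2 signal, miR-126-/- minus miR-126+/+ (horizontal axis), for the 14 tested probes, with the 95% interval of the limma fit; filled points are the brightest probe of a gene, open points its further probes, and genes with more than 1 probe carry the probe's identifier. Intervals include 0 for every probe but that of Igfbp7 (-0.63 to -0.06), and are widest for the 2 Igfbp2 probes.

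Igfbp2, whose protein is a binder of IGF2 and IGF1 and a secreted product of fat, liver and many tumours, showed the largest difference and the largest spread. Its coding probe, printed above, read 0.14, -1.32, -1.47 and -0.08 in miR-126-/- arteries and -0.91, -1.09, -1.98 and -2.06 in miR-126+/+ arteries. The arteries miR-126-/- 1 and miR-126-/- 4 were higher than every miR-126+/+ artery, while miR-126-/- 2 and miR-126-/- 3 lay among them. The means were -0.68 ± 0.83 against -1.51 ± 0.59 (SD, n = 4 each). The difference of 0.83 ± 0.45 (SE) is a ratio of 1.77, with a 95% interval of 0.866 to 3.63, and did not pass (limma adjusted p = 0.617).

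The second Igfbp2 probe, 136 bases downstream (chr1:72898813-72898872), put the 8 arrays in nearly the same positions. It read 0.11, -1.46, -1.55 and -0.30 in miR-126-/- arteries and -0.98, -1.33, -2.33 and -2.38 in miR-126+/+ arteries, again with miR-126-/- 1 and 4 on top and miR-126+/+ 3 and 4 at the bottom. Its difference was 0.95 ± 0.48 (SE; limma adjusted p = 0.578). The pooled SD within genotypes was 0.722 for the first probe and 0.771 for the second, larger than in 92.7% and 93.7% of all probes tested, so mice of the same genotype differed in Igfbp2 more than in most transcripts. Without miR-126-/- 1 the difference of the first probe was 0.55, and without miR-126-/- 3 it was 1.09. With the adipocyte marker mean as a covariate it was 1.25 (limma adjusted p = 1.0, and 0.581 to 1.0 over all alternatives); the part of fat in this result was not tested further.

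Igfbp5 lies next to Igfbp2 in the mouse genome, on the opposite strand with no gene between them, and their probes are 6093 bases apart (mm9). IGFBP5 binds extracellular matrix and is made by smooth muscle cells and fibroblasts. Its probe (chr1:72904829-72904888) read 4.63, 4.44, 5.21 and 4.49 in miR-126-/- arteries and 5.27, 4.92, 4.37 and 4.86 in miR-126+/+ arteries. The genotypes overlapped, with the highest and the lowest of the 8 values both in miR-126+/+ arteries. The difference was -0.16 ± 0.23 (SE; 95% interval -0.70 to 0.38; limma adjusted p = 0.871), and it ran from -0.33 without miR-126-/- 3 to -0.022 without miR-126+/+ 1.

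Igfbp1 and Igfbp3 form a second neighbouring pair, also on opposite strands with no gene between them (chromosome 11, probes 4093 bases apart in mm9). Igfbp1, an insulin-regulated gene of liver and decidua, was not well above background on any of the 8 arrays (log2 signal -7.56 to -7.19 in miR-126-/- arteries and -7.78 to -7.0 in miR-126+/+ arteries), so no fold is given. Igfbp3, which encodes the main carrier of IGFs in plasma, read 0.29, 0.29, 0.84 and 1.10 in miR-126-/- arteries and 0.64, 0.32, 1.0 and 0.64 in miR-126+/+ arteries. The groups covered nearly the same range, and the difference was -0.02 ± 0.22 (SE; 95% interval -0.54 to 0.50; limma adjusted p = 0.985).

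**Figure D3:**
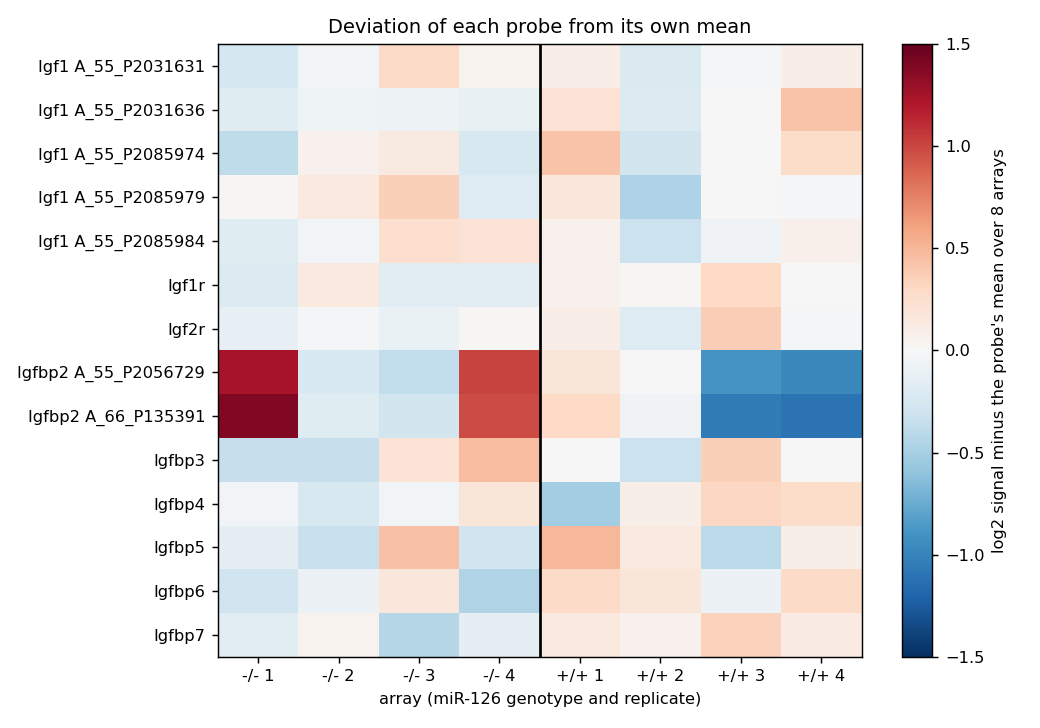
Deviation of each tested probe (rows) from its mean over the 8 arrays, in log2 units, by array (columns; miR-126-/- left of the line, miR-126+/+ right of it). The 2 Igfbp2 probes show the strongest colours, red in miR-126-/- 1 and 4 and blue in miR-126+/+ 3 and 4; the overlapping Igf1 probes share their pattern.

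Igfbp4, the binding protein that PAPP-A cleaves and that inhibits IGF action, read 3.54, 3.34, 3.54 and 3.76 in miR-126-/- arteries and 3.06, 3.67, 3.90 and 3.86 in miR-126+/+ arteries. The miR-126+/+ values enclosed the others, with miR-126+/+ 1 alone at the low end. The difference was -0.07 ± 0.20 (SE; 95% interval -0.52 to 0.38; limma adjusted p = 0.936), and -0.36 with the adipocyte marker mean as a covariate (limma adjusted p = 1.0, and 0.696 to 1.0 over all alternatives).

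Igfbp6, the binding protein with a preference for IGF2, was lower on average in miR-126-/- arteries. It read 5.61, 5.83, 6.08 and 5.46 there, against 6.20, 6.10, 5.82 and 6.20 in miR-126+/+ arteries. The overlap came from miR-126-/- 2 and 3 and from miR-126+/+ 3. The difference of -0.33 ± 0.16 (SE) is a ratio of 0.794, with a 95% interval of 0.618 to 1.02 (limma adjusted p = 0.552).

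Igfbp7, a basement membrane protein of blood vessels, was the member in which the genotypes did not overlap. Its probe (chr5:77778271-77778330) read -1.05, -0.84, -1.32 and -1.04 in miR-126-/- arteries and -0.74, -0.82, -0.54 and -0.77 in miR-126+/+ arteries. All 4 miR-126-/- values were lower, by a margin of 0.02 at the closest. The means were -1.06 ± 0.20 against -0.72 ± 0.12 (SD, n = 4 each), and the difference of -0.34 ± 0.12 (SE) is a ratio of 0.788 (95% interval 0.647 to 0.959). Unadjusted p was 0.0232 and limma's adjusted p was 0.408. Separation of the genotypes was seen for 1 of 14 member probes and for 6.04% of all probes tested (2.57% with miR-126-/- lower), so a share of this size is near the background. With the adipocyte marker mean as a covariate the difference was -0.22 (limma adjusted p = 1.0, and 0.331 to 1.0 over all alternatives). Endothelial cells are a known source of IGFBP7. Of 10 endothelial markers 9 were higher in miR-126-/- arteries (median difference 0.21), where 48.6% of all probes tested were. Of the 10 markers 0 passed (limma adjusted p from 0.0711 to 0.983). Their summed signal was 53.0 to 71.7 against 45.8 to 62.3, with overlap. The part of endothelial cells in the Igfbp7 difference was not tested. Over the 8 arrays Igfbp7 and the endothelial marker mean had an r of -0.54 (exact permutation p = 0.162, adjusted 0.692 over 98 relations of probes with marker lists) and a rho of -0.55 (exact permutation p = 0.171, adjusted 0.598). The r was -0.77 without miR-126-/- 2 and 4, 0.38 within miR-126-/- and -0.17 within miR-126+/+ arteries. With the adipocyte marker mean Igfbp7 had an r of -0.74 (exact permutation p = 0.0343, adjusted 0.49) and a rho of -0.76 (exact permutation p = 0.0368, adjusted 0.499). That r was -0.50 without miR-126+/+ 1 and 3, -0.18 within miR-126-/- and -0.63 within miR-126+/+ arteries.

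Igf1 tended to be lower in arteries with more skeletal muscle RNA, in a relation that did not pass after adjustment. Over the 8 arrays the brightest Igf1 probe and the mean of the skeletal muscle markers had a Pearson r of -0.92 (exact permutation p = 0.00104) and a Spearman rho of -0.88 (exact permutation p = 0.00724). Of 98 relations between 14 probes and 7 marker lists this had the smallest p by Pearson. By Spearman it shared the smallest p with the Igf1 probe 2343 bases downstream and the fibroblast markers (rho 0.88). The muscle relation did not pass after Benjamini-Hochberg adjustment (adjusted p = 0.102 and 0.263). The sign was the same within each genotype, which is also a slide row, with r of -0.94 in the 4 miR-126-/- arteries and -1.0 in the 4 miR-126+/+ arteries. Without the 2 arrays farthest from the median in muscle markers, miR-126-/- 1 and miR-126+/+ 2, r was -0.74. The overlapping Igf1 probe gave -0.90 and the other 3 gave -0.77, -0.69 and -0.53 over all 8 arrays. Without the same 2 arrays these r were -0.68, -0.45, -0.53 and -0.09, so for the last probe little of the relation was left. With the muscle marker mean as a covariate the genotype difference of Igf1 was 0.04 (limma adjusted p = 0.92, and 0.842 to 1.0 over all alternatives). The relation to macrophage markers (r = 0.77, exact permutation p = 0.0266, adjusted 0.49) was 0.93 within miR-126-/- and 0.11 within miR-126+/+ arteries. It was 0.21 without miR-126-/- 1 and 3 and so rests on them.

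**Figure D4:**
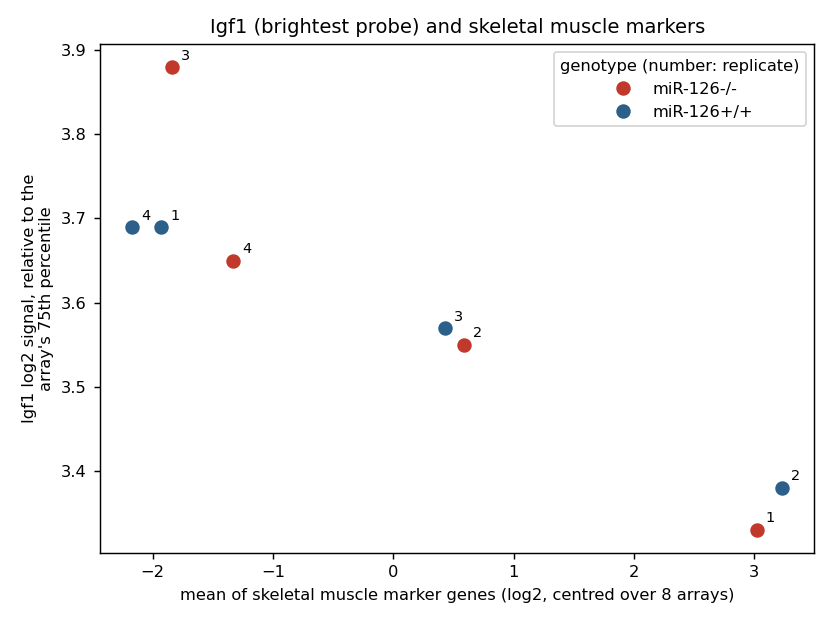
Scaled log2 signal of the brightest Igf1 probe (vertical axis) against the mean of 9 skeletal muscle marker genes, centred over the 8 arrays (horizontal axis), with 1 point per artery and its replicate number, miR-126-/- in red and miR-126+/+ in blue. Both genotypes lie along the same falling line, and the lowest Igf1 values, 3.33 and 3.38, are those of miR-126-/- 1 and miR-126+/+ 2.

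The genes whose pattern over the 8 arrays was most like that of a member, once genotype means were taken out, were searched among 14110 named genes. For Igf1 they were Ang (r = 0.973), which encodes angiogenin, Dock11 (0.967), which encodes an activator of the small GTPase CDC42, and the pseudogene Rpl21-ps5 (0.966). For Igfbp7 they were N4bp2 (0.986), the renin gene Ren1 (0.968) and Apitd1 (0.966), and for Igfbp6 Zfp93 (0.969), Klhl13 (0.964) and Zfp9 (0.960). These are descriptions of 8 arrays, given without a test.

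The surrounding pathway was described with 41 other genes of IGF supply, release and signalling, of which 38 were tested. The probes of Igfbpl1, Igf2bp1 and Igf2bp3 were too dim. In limma 0 passed, 18 differences were above 0 and 20 below, and the median was -0.04. At an unadjusted p under 0.05 there were 6 (4 higher in miR-126-/- arteries, where 5.92% of all probes were, and 2 lower, where 3.97% were). The genotypes did not overlap for 4 of the 38, Pappa, Pappa2, Adam12 and Akt2, against 6.04% of all probes.

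Of 7 genes listed as proteases or protease inhibitors (Pappa, Pappa2, Stc1, Stc2, Htra1, Adam12 and Ide), 0 passed (smallest limma adjusted p 0.313). Differences were above 0 for 4 and below 0 for 3. The genotypes did not overlap for 3, already counted among the 4 named above, against 6.04% of all probes tested. Pappa, which encodes the metalloproteinase PAPP-A that cleaves IGFBP4, read -1.81, -2.35, -1.81 and -2.37 in miR-126-/- arteries and -1.04, -1.38, -1.60 and -1.68 in miR-126+/+ arteries. All 4 miR-126-/- values were lower, and the difference of -0.66 ± 0.20 (SE) did not pass (limma adjusted p = 0.315). With the adipocyte marker mean as a covariate it was -0.32 (limma adjusted p = 1.0, and no lower than 0.215 under any alternative).

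Its relative Pappa2, which cleaves IGFBP3 and IGFBP5, went the other way. It read -1.97, -1.69, -1.72 and -1.20 in miR-126-/- arteries and -2.09, -2.13, -2.60 and -2.08 in miR-126+/+ arteries, a difference of 0.58 ± 0.19 (SE; limma adjusted p = 0.361). With the adipocyte covariate it was 0.19 (limma adjusted p = 1.0, and no lower than 0.285 under any alternative), and a second Pappa2 probe was not well above background on any array.

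Adam12, a membrane protease that also cuts IGFBP3 and IGFBP5, read -1.81, -1.78, -1.73 and -1.69 in miR-126-/- arteries and -2.21, -2.44, -1.96 and -2.01 in miR-126+/+ arteries. The difference was 0.40 ± 0.12 (SE; limma adjusted p = 0.313). Of its 2 other probes, 1 gave 0.07 ± 0.27, and the other, above background on 1 of 4 miR-126+/+ arrays, gave 0.50 ± 0.33. The serine protease gene Htra1 gave -0.17 ± 0.14 and the PAPP-A inhibitor gene Stc2 gave -0.48 ± 0.28 (SE; limma adjusted p = 0.757 and 0.648). Without miR-126+/+ 1 the Stc2 difference was -0.20.

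**Figure D5:**
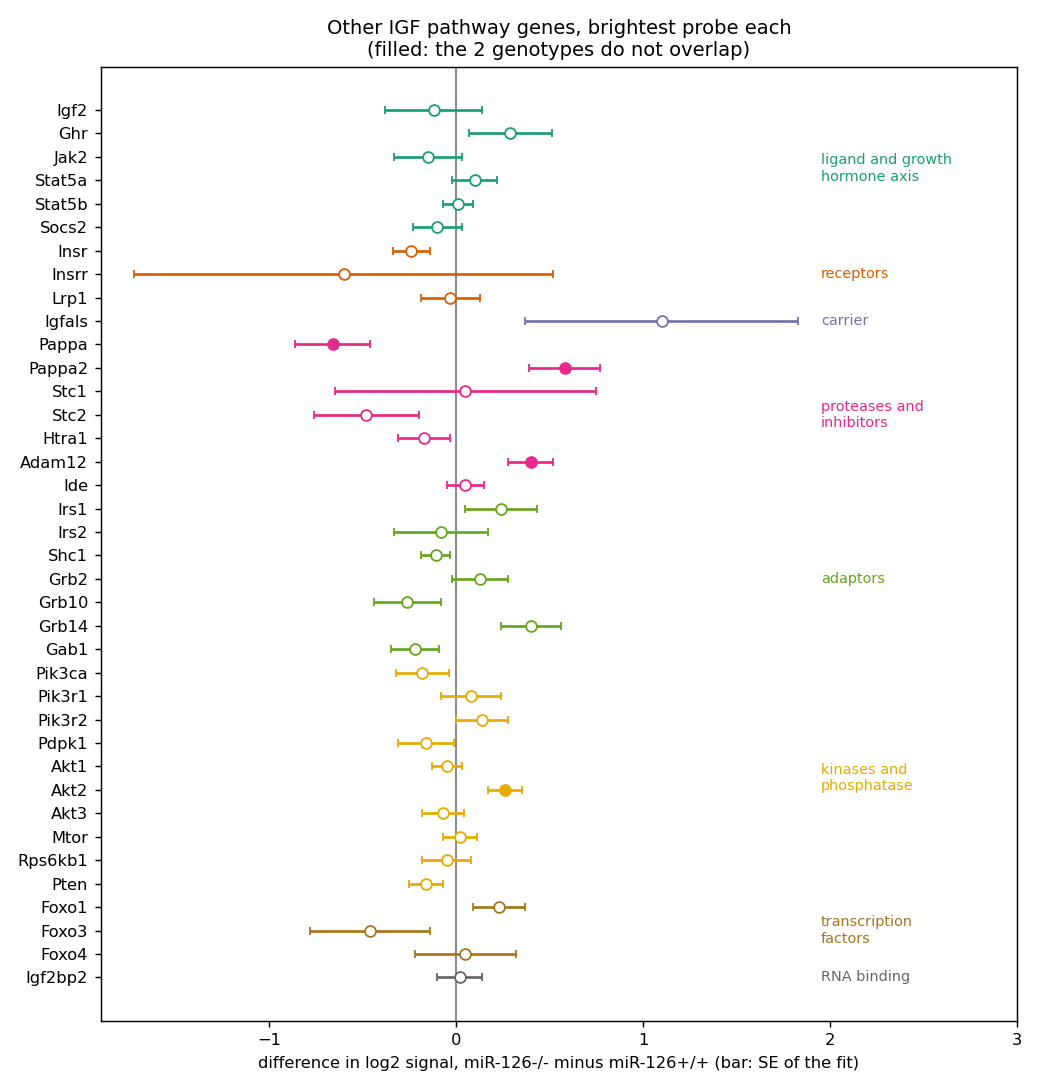
Difference in log2 signal, miR-126-/- minus miR-126+/+ (horizontal axis), with its SE for the brightest probe of 38 further IGF pathway genes, coloured by role; filled points are genes whose genotypes did not overlap. Most points lie near 0, Pappa is the lowest of the filled points and Pappa2 the highest, and Igfals, Insrr and Stc1 have the widest bars.

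The second ligand and the hormone receptor above IGF1 did not stand out. Igf2 was dim on all arrays (-4.34 to -3.14 in miR-126-/- arteries and -4.08 to -3.67 in miR-126+/+ arteries), with a difference of -0.12 ± 0.26. Ghr, which encodes the growth hormone receptor that drives Igf1 transcription in liver, gave 0.29 ± 0.22, and 0.47 ± 0.27 by a second probe (SE; limma adjusted p = 0.733 and 0.641). The insulin receptor gene Insr read -0.84, -0.78, -0.82 and -0.65 in miR-126-/- arteries and -0.65, -0.61, -0.51 and -0.35 in miR-126+/+ arteries. The groups met at -0.65. The 3 Insr probes gave -0.24 ± 0.10, -0.31 ± 0.11 and -0.42 ± 0.10 (SE; limma adjusted p = 0.472, 0.417 and 0.250), all in the same direction. The genotypes did not overlap for the last 2, where 6.04% of all probes tested had no overlap (2.57% with miR-126-/- lower). Only the first probe, the brightest, entered the count of pathway genes without overlap. With the adipocyte covariate the first was -0.41.

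Among the genes below the receptor, the kinase gene Akt2 read 4.63, 4.55, 4.74 and 4.70 in miR-126-/- arteries and 4.30, 4.36, 4.42 and 4.51 in miR-126+/+ arteries. All 4 miR-126-/- values were higher. The difference was 0.26 ± 0.09 (SE; limma adjusted p = 0.379). A second probe, which overlaps most of the first and so is no separate measurement, gave 0.27 ± 0.08. The only probe elsewhere in the gene gave -0.23 ± 0.16, and the mean of the Akt2 probes gave 0.1. With the adipocyte covariate the first probe gave 0.15 (limma adjusted p = 1.0, and no lower than 0.237 under any alternative). The adaptor gene Grb14, an inhibitor of insulin receptor signalling, gave 0.40 ± 0.16, and Gab1, a docking protein gene, gave -0.22 ± 0.13 (SE; limma adjusted p = 0.470 and 0.649). With the adipocyte covariate they were 0.20 and -0.40. The receptor substrate genes Irs1 and Irs2 gave 0.24 ± 0.19 and -0.08 ± 0.25 (SE; limma adjusted p = 0.756 and 0.948), with overlap of the genotypes in both.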

How the data were processed

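RNA of 8 arteries was labelled with Cy3 and read in 1 colour on Agilent mouse arrays, per the labels. Per the file headers, the authors' processed signals are background-subtracted intensity values from Agilent Feature Extraction 10.7.3.1, not scaled between arrays, with positions on mm9. The authors' deposited value table gave the same intensities (median log2 difference 0 on each array); its column medians ran from 41.7 to 57.5.

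Control spots and outlier spots (146 to 216 per array; 1 was a member spot) were left out, spots of a probe averaged, and log2 values set against the array's 75th percentile over noncontrol spots. A probe was tested when well above background on at least 3 of 4 arrays of a genotype, by most of its spots (32481 probes). Every probe was fitted with limma 3.58.1 (R 4.3.3; 6 residual degrees of freedom) and p-values adjusted over all of them (threshold 0.05). The fit was tested on simulated data with shifts larger than any member difference. Its recovery of differences as small as those of the members was not tested. The number of arrays limits the precision.

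Members, lists and tests were chosen with earlier results of these data known. Named are all members, fixed pathway genes (Igf2, Insr, Ghr, Pappa, Irs1, Irs2, Htra1), the 6 others with the smallest p, and the 3 genes most like Igf1 and like the 2 other members with the smallest p. RefSeq (GRCm38.p6) served for names, strands and neighbours. It held the accession of 14 of 15 member probes, and all 15 lay on the gene's strand. Alternatives were 22: other background correction, scaling, filters, probe choice, spread model, covariates, a replicate block and arrays left out. No pairing of the mice by replicate number was seen.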

Additional observations from a re-analysis of the deposited data

Results flagged for a closer look

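Among 58 groups of 4 arrays looked at, 3 held an array far from the others, and chance gives about 1 in 20. Igf1r read 2.13 on miR-126-/- 2, where the other miR-126-/- arrays read 1.77 to 1.82. Igf2 read -3.14 on miR-126-/- 1, against -4.34 to -4.14 on the others of its genotype. Pappa2 read -2.60 on miR-126+/+ 3, against -2.13 to -2.08 on the other miR-126+/+ arrays.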

How the results depend on the processing

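Under the 22 alternatives, 0 member probes and 0 of the other IGF pathway genes passed in limma. The lowest adjusted p was 0.331 for a member and 0.185 for a named pathway gene. Of 298 member values under alternatives 287 kept their sign. This count includes alternatives that cannot move a member's fitted difference. These are the changed filters, the brightest probe of each gene, the intensity trend, the replicate block and removal of the dim area. Signs kept under those say nothing about stability. The brightest Igf1 probe gave -0.062 with normexp, -0.024 as the mean of its probes and -0.10 with the adipocyte covariate, and with that covariate Igf2r gave 0.058, Igf2 0.11, Ghr -0.11, Irs1 -0.22, Irs2 0.019 and Stc2 0.048. With 1 array left out, Igf1 ran from -0.071 to 0.11, Igfbp3 from -0.18 to 0.10, Igfbp4 from -0.26 to 0.02, Irs2 from -0.23 to 0.13 and Igf2 from -0.39 to 0.012. The cause was not tested.

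Over all probes, the 13 calls became 39 with normexp, 7 with probes above background on all arrays, 27 with the brightest probe of each gene (fewer probes tested), 8 with an intensity trend, 1 with the skeletal muscle covariate, and 0 to 52 with 1 array left out (0 without miR-126-/- 2, where 2514 probes had an unadjusted p under 0.05, 2 without miR-126-/- 1, 3 without miR-126-/- 3, 7, 3 and 52 without miR-126+/+ 1, 2 and 4). Limma called 0 with the adipocyte covariate (1537 at an unadjusted p under 0.05), 0 without the 2 arrays highest in muscle genes (2658 such probes) and 0 with the replicate block (2883 such probes). Same-numbered mice correlated at 0.175, -0.285, -0.042 and 0 in their deviations, so no pairing by number was seen. These values cannot exclude one.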

Other observations

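Igf2r, Igfbp3 and Igfbp2 also had relations to marker lists, none of which passed over the 98 computed. Igf2r and the fibroblast markers had an r of 0.73 (exact permutation p = 0.0339, adjusted 0.49) and a rho of 0.71 (exact permutation p = 0.0576, adjusted 0.523), with 0.58 within miR-126-/- and 0.72 within miR-126+/+ arteries. Igf2r and the Schwann cell markers had an r of -0.74 (exact permutation p = 0.0436, adjusted 0.49) and a rho of -0.55 (exact permutation p = 0.171, adjusted 0.598), with 0.31 within miR-126-/- and -0.98 within miR-126+/+ arteries. Without miR-126+/+ 2 and 3 these r were 0.27 and 0.29, so both relations rest on those arrays. Igfbp3 and the macrophage markers had a Pearson r of 0.69 (exact permutation p = 0.0501, adjusted 0.49) and a Spearman rho of 0.86 (exact permutation p = 0.0107, adjusted 0.263) over 8 arrays, and r was 0.83 without miR-126-/- 1 and 3. Within genotypes r was 0.69 in miR-126-/- and 0.85 in miR-126+/+ arteries. The first Igfbp2 probe and the fibroblast markers had an r of -0.70 (exact permutation p = 0.055, adjusted 0.49) and a rho of -0.74 (exact permutation p = 0.0458, adjusted 0.499), and r was -0.87 without miR-126+/+ 2 and 3. Within genotypes r was -0.77 in miR-126-/- and -0.83 in miR-126+/+ arteries. The genes most like Igfbp2, looked at after its values were seen, were Zc3h8 (r = 0.967), Tmem74 (0.966) and Ttc3 (0.961).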
